A study of Rattus norvegicus with 8 samples.

Results

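Prkcd, Tcf7l2, Slc17a6, Lef1, Etv1, Lamp5 and Rorb are markers of thalamic and neocortical neurons, the tissues that border the rat hippocampus. They were taken by gene symbol: every non-control probe whose annotated gene name is 1 of these 7 symbols was used, which gave 10 of the 30367 probes on the array, for 7 of 26214 genes. All 10 probes passed the filter on dim probes, which asked that a probe be well above background on both arrays of some group, and so were tested. On all 8 arrays this held for 9 of them, and for the dimmest, a Lef1 probe, on 7 arrays. No member probe was saturated.

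Male rats of the Sprague Dawley strain were either left in normoxia or put in a decompression chamber at the pressure of 25000 ft, which corresponds to 8% oxygen (hypobaric hypoxia). Total RNA of the hippocampus was measured on single-colour Agilent arrays. There were 4 groups of 2 arrays each: normoxia, and the exposed groups titled day 1, day 3 and day 7. The last group is titled day 7 but carries 5 days in its exposure field, and it is called day 7 here. No genotype, age or pooling of animals is given, and whether the paired arrays of a group are separate rats is not stated, so the p-values reflect the spread among these arrays alone, and that may be technical.

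The thalamus relays sensory input to the cortex through glutamatergic neurons that load their vesicles with VGLUT2, the product of Slc17a6. The identity of these neurons depends on Tcf7l2, a high-mobility-group transcription factor that binds beta-catenin in the Wnt pathway, and Lef1 belongs to the same TCF/LEF family. Prkcd encodes protein kinase C delta, a kinase activated by diacylglycerol, and marks most sensory relay nuclei. In the neocortex, Rorb, an orphan nuclear receptor, marks layer 4, and Etv1, an ETS transcription factor, marks layer 5 output neurons. Lamp5, a neuronal member of the lysosome-associated membrane protein family, marks upper layers and a class of inhibitory neurons. None of these genes is exclusive to its region: Tcf7l2 is also made by cells of the oligodendrocyte lineage and Lef1 by brain endothelium.

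Values below are relative levels, that is log2 of the processed signal minus the 75th percentile of that array, with the spots of a probe averaged. A change is a difference of 2 group means on this scale, given with the standard error of the limma model, and was called when its Benjamini-Hochberg adjusted p over 24678 probes was below 0.05. The array's 75th percentile of processed signal was 2684.2 and 2321.3 in normoxia and lower on day 7, at 1407.4 and 1393.3, and the share of spots well above background ran from 72.6% to 85.6%. All arrays lay on 1 slide, with normoxia and day 1 in its first row and day 3 and day 7 in the second. Normoxia and day 3 held columns 1 and 2, and day 1 and day 7 held columns 3 and 4. Slide position, by row or by column, and exposure thus cannot be told apart in any comparison. Within a group, the median probe differed between the arrays by 0.0508 to 0.0788 log2.

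Because Tcf7l2 and Lef1 each have several probes that do not give the same course, and because Etv1, Lamp5 and Rorb rest on 1 probe each, 7 of their 8 probe sequences are shown, 5′ to 3′ in the sense of the mRNA, as the scanner files give them. Positions were copied from the array annotation, on rat build rn4. In the first pair, capitals mark the bases at which overlapping probes differ.
Lef1 A_64_P166158: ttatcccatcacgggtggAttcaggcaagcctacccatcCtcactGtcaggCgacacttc
Lef1 A_64_P052007: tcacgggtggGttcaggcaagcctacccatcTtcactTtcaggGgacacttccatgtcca
Lef1 A_64_P052010: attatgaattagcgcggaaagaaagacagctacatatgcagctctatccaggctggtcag
Tcf7l2 A_64_P040190: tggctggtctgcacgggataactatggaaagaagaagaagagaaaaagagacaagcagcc
Etv1 A_44_P211061: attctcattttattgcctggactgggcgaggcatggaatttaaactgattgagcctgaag
Lamp5 A_44_P398529: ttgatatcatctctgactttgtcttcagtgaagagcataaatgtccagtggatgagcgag
Rorb A_44_P463791: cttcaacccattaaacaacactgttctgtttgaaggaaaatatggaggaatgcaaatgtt

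The first pair of Lef1 probes lies at chr2:228659730-228659789 and chr2:228659738-228659797, plus strand, offset by 8 bases. Over the 52 bases that they share, they differ at 4, namely A19G, C40T, G46T and C52G, counted from the 5′ end of A_64_P166158, with its base first. The third Lef1 probe lies downstream at chr2:228668698-228668757. Tcf7l2 A_64_P040190 spans 4354 genomic bases at chr1:262211540-262215893, so its 60 bases cross an intron. The other Tcf7l2 probe, A_64_P099307, lies further downstream at chr1:262226651-262226710 and holds the letters AATAAA, the usual signal for polyadenylation, as do 8.39% of all probes on the array when read in the printed sense. Lamp5 A_44_P398529 also crosses an intron and spans 10231 bases at chr3:124129498-124139728. The Etv1 probe lies at chr6:57752857-57752916 and the Rorb probe at chr1:222565066-222565125 on the minus strand. Prkcd A_44_P451071 lies at chr16:5954516-5954575 on the minus strand, and Slc17a6 A_42_P511118 at chr1:101465828-101465887 on the plus strand. Of these probes, only that of Slc17a6 holds a stop codon in every forward reading frame.

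Against normoxia, member probes were mostly lower. On day 1, 5 of the 10 fell, 1 rose and 4 were not called, while 19.2% of all probes fell and 15.1% rose. On day 3, 9 fell and 1 was not called, against 27.2% of all probes that fell and 22.7% that rose. On day 7, 8 fell and 2 were not called, against 31.4% and 29.6%. The median change of the 10 probes was -0.42, -0.86 and -0.59 log2 on days 1, 3 and 7, beside -0.06, -0.07 and -0.07 over all probes. These comparisons share the normoxia arrays and are given side by side for that reason. In whole tissue, fewer cells of a type and less RNA per cell cannot be told apart.

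**Figure D1:**
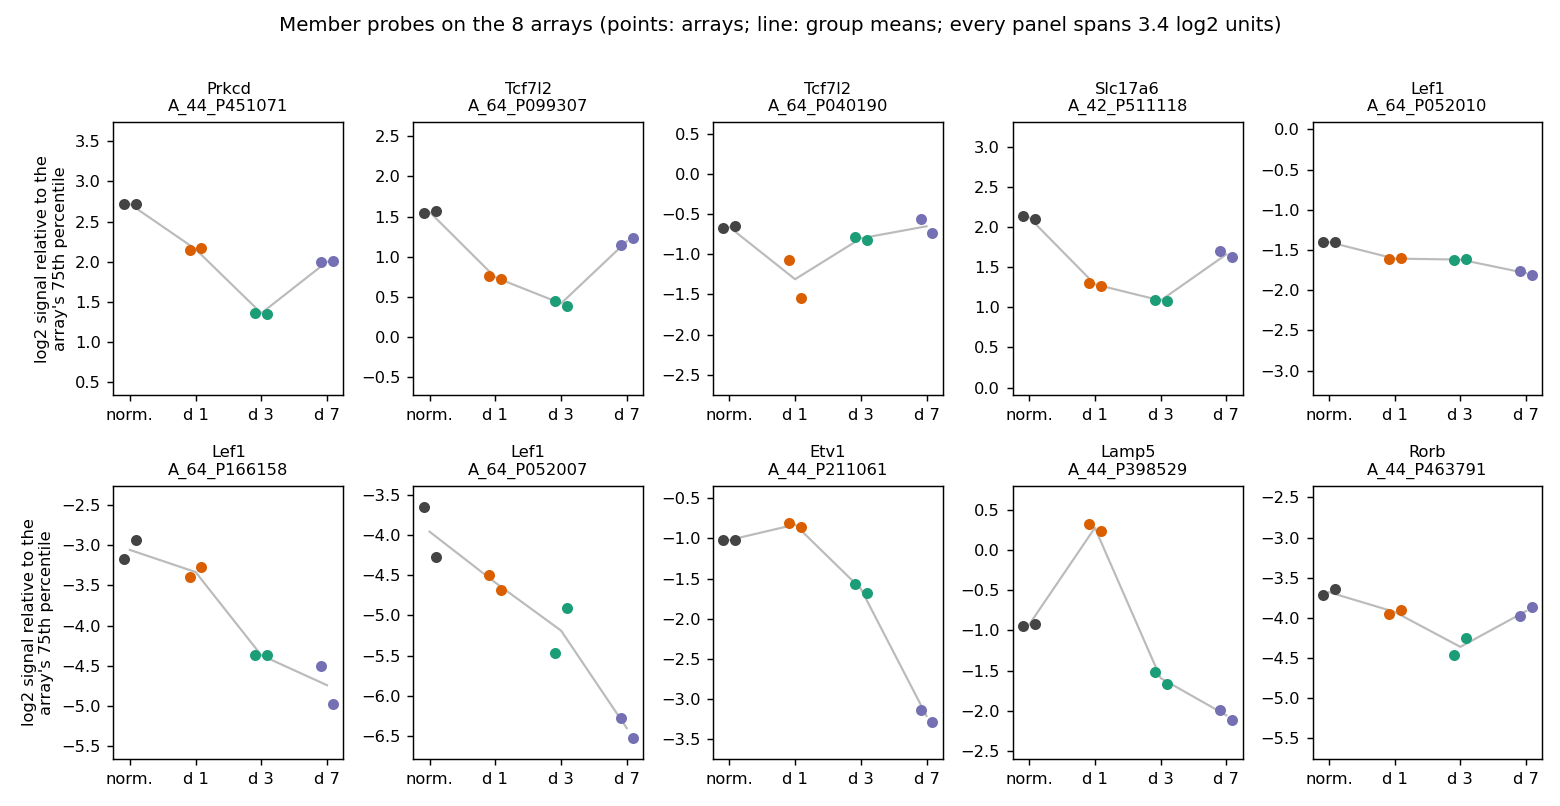
Relative level (log2 processed signal above or below the 75th percentile of the array) of each of the 10 member probes on the 8 arrays, by group; points are arrays, lines join group means, and every panel spans the same number of log2 units. Prkcd, Slc17a6, Rorb and Tcf7l2 probe A_64_P099307 were lowest on day 3, while Etv1, Lamp5 and the 3 Lef1 probes were lowest on day 7. Tcf7l2 probe A_64_P040190 was lowest on day 1.

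The 3 brightest member probes, those of Prkcd and Slc17a6 and Tcf7l2 A_64_P099307, all thalamic, fell on day 1. They were lowest on day 3 and higher again on day 7. Prkcd, measured on 10 spots per array, stood at 2.72 and 2.71 under normoxia, with 2.15 and 2.17 on day 1, 1.37 and 1.35 on day 3, then 1.996 and 2.005 on day 7. The arrays of every group lay close together and no groups overlapped, so the order from high to low was normoxia, day 1, day 7 and day 3. Days 1 and 7 were not compared by a test. In processed signal, normoxia gave 17730 and 15230 units and day 3 gave 4411 and 3998. Prkcd was lower by -0.56 ± 0.03 (SE) on day 1, -1.36 ± 0.03 on day 3 and -0.72 ± 0.03 on day 7, with adjusted p-values of 0.000433, 4.64e-05 and 6.9e-05. The day 3 change is a 2.57-fold fall and the largest fall of any member probe on that day. The size on day 7 depended on the scaling, at -0.42 with median centring and -1.55 with no scaling, and was called under both.

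Slc17a6, the vesicular glutamate transporter VGLUT2, was also measured on 10 spots. Its relative level was 2.14 and 2.10 under normoxia, with 1.30 and 1.27 on day 1, 1.095 and 1.07 on day 3, then 1.70 and 1.62 on day 7. The groups were separate throughout, with normoxia highest, then day 7, day 1 and day 3. The change from normoxia was -0.83 ± 0.04 on day 1 (adjusted p = 0.000302), -1.03 on day 3 (adjusted p = 0.000133) and -0.46 on day 7 (adjusted p = 0.000499). On day 7 it was -0.17 with median centring and -1.29 with no scaling, both called. Days 1 and 3 are neighbours in this order and differed by -0.20 ± 0.04 (adjusted p = 0.0127). It was -0.08 with median centring and -0.16 with normexp background correction, neither called (adjusted p = 0.165 and 0.0633), and -0.65 with no scaling. That step was also not called without day 1 replicate 1 (-0.19, adjusted p = 0.0729) or without day 3 replicate 2 (-0.19, adjusted p = 0.0602).

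Tcf7l2 was measured by probes of 1 spot each, and they disagreed after day 1. The downstream probe, A_64_P099307, read 1.55 and 1.56 under normoxia, with 0.76 and 0.73 on day 1, 0.45 and 0.39 on day 3, then 1.15 and 1.24 on day 7. Its groups did not overlap, and their order was that of Slc17a6. It fell by 0.81 on day 1, by 1.14 on day 3 and by 0.36 on day 7 on the log2 scale (SE 0.05; adjusted p = 0.000407, 0.000128 and 0.00152). With median centring the day 7 change was -0.07 and was not called (adjusted p = 0.27).

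The intron-crossing Tcf7l2 probe, A_64_P040190, read -0.67 and -0.65 under normoxia, with -1.08 and -1.55 on day 1, -0.78 and -0.82 on day 3, then -0.56 and -0.74 on day 7. The day 1 arrays were the lowest but lay far apart, and the day 7 arrays overlapped those of normoxia. Its change was -0.65 ± 0.16 on day 1 (adjusted p = 0.0305), -0.14 on day 3 (adjusted p = 0.504) and 0.01 on day 7 (adjusted p = 0.963). The day 1 call was lost with only the groups compared (adjusted p = 0.0777), and without normoxia replicate 1 (-0.66, adjusted p = 0.109), without normoxia replicate 2 (-0.64, adjusted p = 0.117) and without either day 3 array (-0.65, adjusted p = 0.055). Both Tcf7l2 probes were thus called lower on day 1, and with the main scaling the downstream probe alone on days 3 and 7. With no scaling the intron-crossing probe was called lower on those days too (-0.75 and -0.82, adjusted p = 0.0083 and 0.00458).

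Lef1, the TCF/LEF factor with 3 probes, declined through to day 7 in all of them, but by unequal amounts. The brightest, A_64_P052010, has 1 spot and read -1.40 and -1.40 under normoxia, with -1.62 and -1.60 on day 1, -1.63 and -1.61 on day 3, then -1.76 and -1.82 on day 7. Normoxia was highest and day 7 lowest, while days 1 and 3 overlapped. Its changes from normoxia were -0.21 ± 0.04, -0.22 ± 0.04 and -0.39 ± 0.04 on days 1, 3 and 7 (adjusted p = 0.0116, 0.00625 and 0.000542). With median centring they were -0.18, -0.07 and -0.09, of which the first alone was called (adjusted p = 0.0221, 0.192 and 0.0905). With normexp background correction the first 2 calls were lost (-0.20 and -0.09, adjusted p = 0.066 and 0.311), and with no scaling the first (-0.37, adjusted p = 0.0555). The day 1 call was also lost without normoxia replicate 1, normoxia replicate 2, day 1 replicate 1 or day 1 replicate 2, at changes of -0.21, -0.21, -0.20 and -0.22 (adjusted p = 0.0531, 0.0536, 0.0716 and 0.0581).

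The overlapping Lef1 probes were much dimmer and gave larger falls. Probe A_64_P166158, on 2 spots, read -3.18 and -2.94 under normoxia, with -3.40 and -3.27 on day 1, -4.37 and -4.37 on day 3, then -4.51 and -4.98 on day 7. Days 3 and 7 lay below all arrays of normoxia and day 1 but were not called apart from each other (-0.37, adjusted p = 0.144). It was not called on day 1 (-0.28 ± 0.17, adjusted p = 0.275) and was lower by -1.31 on day 3 (adjusted p = 0.00259) and -1.68 on day 7 (adjusted p = 0.000672). Under the alternative settings that kept all arrays, these falls were between -0.69 and -1.92 on day 3 and between -0.82 and -2.52 on day 7, and all were called.

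Its partner A_64_P052007, with the 4 differing bases, read -3.64 and -4.27 under normoxia, with -4.50 and -4.68 on day 1, -5.47 and -4.91 on day 3, then -6.28 and -6.53 on day 7. The groups did not overlap, but the normoxia arrays were 0.626 log2 apart, and the 2 spots of normoxia replicate 1 had an SD of 0.968. On day 7, 1 of its 2 spots was well above background on replicate 1 and 0 of 2 on replicate 2, where the processed signal was 15.11 units. Its changes were -0.63 ± 0.28, -1.23 and -2.45 on days 1, 3 and 7 (adjusted p = 0.145, 0.0168 and 0.00103), the last with a signal at the background on 1 of the 2 arrays, so its size is not well measured. The day 3 call was lost without normoxia replicate 1 (-0.92, adjusted p = 0.0653) and without day 3 replicate 1 (-0.95, adjusted p = 0.0645). With only the groups compared it was lost too (adjusted p = 0.0637). With normexp background correction the changes on days 3 and 7 were -0.43 and -0.69, both called.

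**Figure D2:**
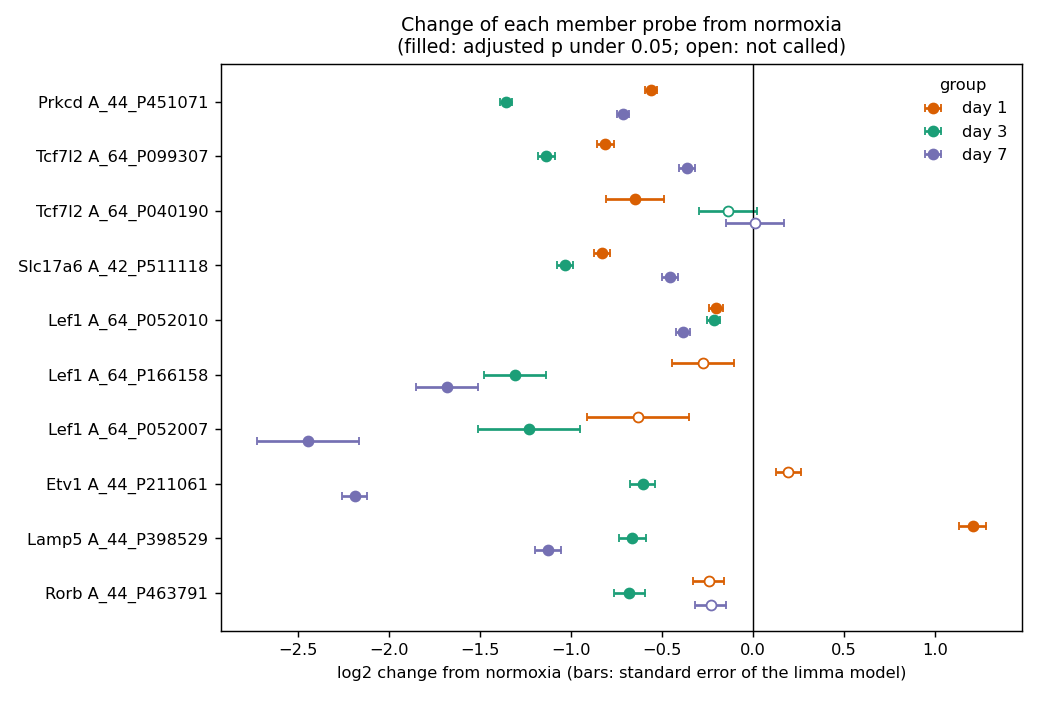
Change of each member probe from normoxia in log2 units on day 1, day 3 and day 7; bars are the standard error of the limma model, filled points have an adjusted p below the threshold and open points do not. Lamp5 on day 1 (1.21) is the only called rise, and Etv1 on day 7 is at -2.19; the day 7 point of Lef1 probe A_64_P052007 (-2.45) rests partly on signal at background.

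Etv1, the ETS factor of layer 5 neurons, changed little on day 1 and fell steeply afterwards. It read -1.01 and -1.03 under normoxia, with -0.80 and -0.85 on day 1, -1.57 and -1.68 on day 3, then -3.14 and -3.29 on day 7. No groups overlapped, and both day 7 arrays lay over 2 log2 units below both normoxia arrays. The day 1 difference of 0.19 ± 0.07 was not called (adjusted p = 0.0859), although it was with median centring (0.22, adjusted p = 0.0424), with the GC trend removed (0.28, adjusted p = 0.0199) and with only the groups compared (adjusted p = 0.0471). Etv1 was lower by -0.61 on day 3 (adjusted p = 0.0016) and by -2.19 ± 0.07 on day 7 (adjusted p = 3.4e-05), a 4.56-fold fall. In processed signal the probe went from 1329 and 1140 units in normoxia to 160.2 and 142.9 units on day 7.

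Lamp5, the membrane protein of upper-layer and some inhibitory neurons, was the only member called higher than normoxia in the main analysis. Its level was -0.94 and -0.92 under normoxia, with 0.32 and 0.24 on day 1, -1.52 and -1.67 on day 3, then -1.995 and -2.12 on day 7. Both day 1 arrays stood above all others and both day 7 arrays below all others. The change was 1.21 ± 0.07 on day 1 (adjusted p = 0.000494), a 2.31-fold rise, then -0.66 on day 3 (adjusted p = 0.00151) and -1.13 on day 7 (adjusted p = 0.000164). These 3 calls held under each alternative setting.

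Rorb, the nuclear receptor of layer 4, was dim and had its lowest level on day 3. It read -3.72 and -3.64 under normoxia, with -3.95 and -3.90 on day 1, -4.47 and -4.26 on day 3, then -3.97 and -3.86 on day 7. Normoxia was highest and day 3 lowest, while the arrays of days 1 and 7 overlapped. Only the day 3 difference from normoxia was called (-0.68 ± 0.09, adjusted p = 0.00227). The day 1 and day 7 differences were -0.24 each (adjusted p = 0.082 and 0.0606), and both were called without day 3 replicate 1 or day 3 replicate 2 (adjusted p = 0.0455 and 0.0291). With only the groups compared, day 1 was called (adjusted p = 0.0421), as it was with no scaling (-0.41, adjusted p = 0.0354). The day 7 difference changed sign with the scaling, from 0.06 with median centring, not called, to -1.07 with no scaling, called. It was -0.49 with the GC trend removed (adjusted p = 0.00627) and was called with the filter on all 8 arrays (adjusted p = 0.0428).

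The time courses followed the regional labels in part. Over the 8 arrays, which form 4 pairs and so hold few independent points, Rorb correlated with Prkcd at a Pearson r of 0.95 and with Etv1 at 0.12. The Lef1 probes correlated with Etv1 at 0.80 to 0.91. Etv1 correlated with Lamp5, its fellow neocortical marker, at 0.83 and with Slc17a6 at -0.02. Among the thalamic genes, Slc17a6 correlated with Tcf7l2 probe A_64_P099307 at 0.98 and with Prkcd at 0.88, while the Tcf7l2 probes correlated with each other at 0.45. These are descriptions without a test, since the points share groups, slide and scaling.

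Between consecutive groups the members split in both directions. From day 1 to day 3, 7 member probes fell and 1 rose, while 24.3% of all probes fell and 26.7% rose. Lamp5 fell most, by -1.87 ± 0.07 (adjusted p = 0.000106), followed by Lef1 A_64_P166158 (-1.04), Etv1 (-0.80) and Prkcd (-0.80). Rorb fell by 0.44 on the log2 scale (adjusted p = 0.00974), a call that was lost without day 1 replicate 2 (-0.41, adjusted p = 0.0549) and with normexp background correction (-0.11, adjusted p = 0.205). The rise was that of Tcf7l2 A_64_P040190 (0.51, adjusted p = 0.0458), whose call was lost on leaving out any array but day 1 replicate 1, at 0.27 to 0.53 (adjusted p = 0.0636 to 0.14).

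From day 3 to day 7, 4 member probes rose and 4 fell, while 22.3% of all probes rose and 18.9% fell. The probes that rose were Tcf7l2 A_64_P099307 (0.77 ± 0.05, adjusted p = 0.000612), Prkcd (0.64, adjusted p = 0.000472), Slc17a6 (0.57, adjusted p = 0.000947) and Rorb (0.45, adjusted p = 0.0119). All 3 thalamic probes among these nevertheless remained below normoxia on day 7, at the values given above. Those that fell were Etv1 (-1.58 ± 0.07, adjusted p = 0.000367), Lef1 A_64_P052007 (-1.21, adjusted p = 0.0216), Lamp5 (-0.46, adjusted p = 0.00658) and Lef1 A_64_P052010 (-0.17, adjusted p = 0.0182). Without day 7 replicate 2, the calls of Rorb (0.39, adjusted p = 0.0538) and of these Lef1 probes (-1.09 and -0.14, adjusted p = 0.09 and 0.0667) were lost. The Lef1 calls were also lost without day 3 replicate 2 (-0.93 and -0.16, adjusted p = 0.0807 and 0.0803), and 1 of them each without day 7 replicate 1 (A_64_P052007, -1.34, adjusted p = 0.0539) and without day 3 replicate 1 (A_64_P052010, -0.18, adjusted p = 0.062). Without day 7 replicate 1, Lef1 A_64_P166158 was called (-0.61, adjusted p = 0.0246). With normexp background correction the call of A_64_P052007 was lost (-0.26, adjusted p = 0.196), as it was with the authors' values (-0.95, adjusted p = 0.0938). That of A_64_P052010 was lost with median centring (-0.02, adjusted p = 0.674), quantile normalization, cyclic loess and normexp (-0.10, -0.13 and -0.18, adjusted p = 0.0991, 0.0502 and 0.0843). With no scaling, Slc17a6 and Rorb lost theirs (0.35 and 0.22, adjusted p = 0.0804 and 0.167), and with the GC trend removed Rorb did (0.27, adjusted p = 0.0706). With only the groups compared, Lamp5, Rorb and these 2 Lef1 probes did (adjusted p = 0.0511 to 0.0938).

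The other markers of the same regions were counted by the brightest probe of each gene. In the thalamus list 12 genes besides the members were tested: 5 fell and 2 rose on day 1, 10 fell and 1 rose on day 3, and 8 fell and 4 were not called on day 7. Their median changes were -0.28, -0.35 and -0.27. Of these 12 genes, 6 had their lowest group mean on day 3, 4 on day 1 and 2 on day 7, while over all probes tested 20% were lowest on day 3, 30.2% on day 1 and 31.4% on day 7. Ramp3, a receptor activity-modifying protein enriched in thalamus, did not share the course of Prkcd: it rose by 0.59 on day 1 (adjusted p = 0.00062, not called with no scaling) and was lower by -0.30 on day 3 and -1.07 on day 7. Tnnt1, a troponin T gene also used as a thalamic marker, rose by 0.70 on day 1 (adjusted p = 0.000286) and was at -0.19 on day 3 and -0.12 on day 7. The last 2 values were called, but the day 3 call was lost and the day 7 sign turned with median centring.

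In the neocortex list 15 further genes were tested, of which 6 rose and 3 fell on day 1, 2 rose and 5 fell on day 3, and 3 rose and 7 fell on day 7. Their lowest group mean was on day 7 in 8 genes, on day 3 in 3, in normoxia in 3 and on day 1 in 1. Over all probes tested, the shares were 31.4%, 20%, 18.4% and 30.2% in the same order. Mef2c, a transcription factor of cortical and other neurons, rose by 1.16 on day 1 (adjusted p = 0.000114), like Lamp5, but was not lower afterwards, at 0.39 on day 3 and 0.20 on day 7, signs that turned with no scaling. Fezf2, which specifies deep-layer output neurons, was lower on all days, at -0.49, -0.31 and -0.41 (adjusted p = 0.000663, 0.00132 and 0.000311). Neither list was chosen without knowledge of these data, so the counts are descriptive.

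**Figure D3:**
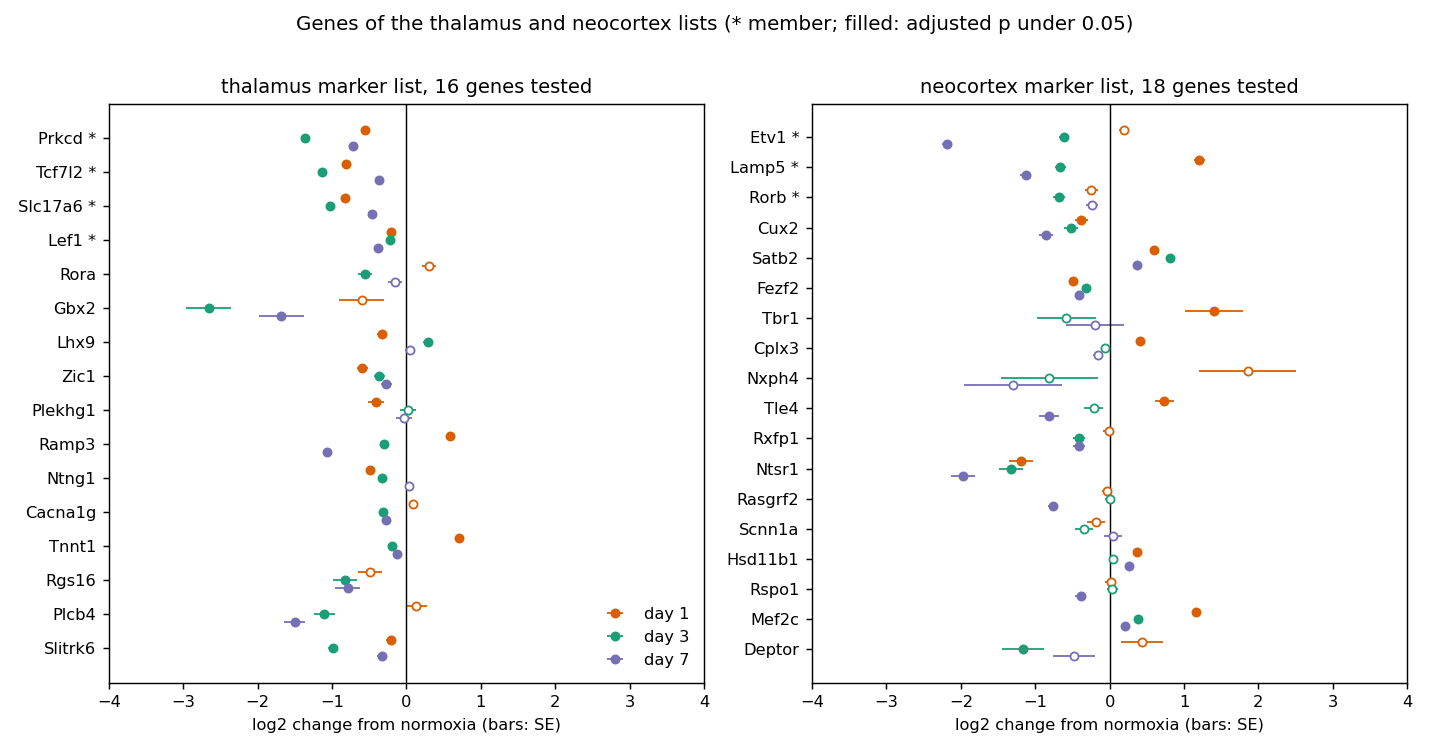
Change from normoxia, in log2 units with standard errors, of the tested genes of the thalamus list (16 genes) and of the neocortex list (18 genes) on day 1, day 3 and day 7; asterisks mark the members and filled points passed the test. On day 3, 14 of the thalamus genes, members included, were called lower and 1 higher, beside 27.2% and 22.7% of all probes. On day 1, 7 of the neocortex genes, members included, were called higher and 3 lower, beside 15.1% and 19.2% of all probes.

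Relatives of the members shared their courses only in part. Of the vesicular glutamate transporters, Slc17a7 (VGLUT1, the main form of hippocampal and cortical pyramidal cells) also fell, by 0.29, 0.59 and 0.82 on days 1, 3 and 7 on the log2 scale (adjusted p = 0.00808, 0.000566 and 0.000115), and unlike Slc17a6 was lowest on day 7. Slc17a8 (VGLUT3) was at 0.51 on day 1 and -0.18 on day 3, neither called. On day 7 it was not well above background, at least 2.83-fold lower than in normoxia (adjusted p = 0.00484), a call that was lost with normexp background correction, where its sign also turned.

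Among 14 TCF/LEF factors and Wnt target genes, 3 rose and 4 fell on day 1, 2 rose and 4 fell on day 3, and 3 rose and 4 fell on day 7, members included. Tcf7, another factor of the family, was at -0.03 on day 1, rose by 0.56 on day 3 (adjusted p = 0.000369) and by 1.33 on day 7 (adjusted p = 2.99e-05), opposite to Lef1. The day 3 rise was not seen with no scaling (-0.04, not called). Apcdd1, a Wnt target that inhibits the pathway, rose on all 3 days (0.72, 1.15 and 1.16, adjusted p = 0.00352, 0.000514 and 0.000245). Nkd1, a further inhibitor induced by Wnt signals, rose by 0.32 on day 1 and was lower by -0.34 on day 7 (adjusted p = 0.00693 and 0.00221). Its day 1 call was lost with no scaling and its day 7 call with median centring.

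Of 8 protein kinase C genes, 3 rose and 4 fell on day 1, 2 rose and 5 fell on day 3, and 3 rose and 4 fell on day 7. Prkca, a calcium-dependent form, fell by 0.79 on day 1 (adjusted p = 0.00042) and by 0.30 on day 3 (adjusted p = 0.00408) and was at 0.06 on day 7, where it was not called. Prkcz, an atypical form, rose by 0.34 on day 1 and fell by 0.96 on day 7 (adjusted p = 5.72e-05). The day 3 call of Prkca was lost with normexp background correction and the day 1 call of Prkcz with no scaling. Neither gene was lowest on day 3, as Prkcd was.

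Of the other PEA3 factors, Etv5 rose on day 3 by its brighter probe (0.42, adjusted p = 0.00397), a sign that turned with no scaling, and was not called on days 1 and 7. Its dimmer probe disagreed: it was at 0.15 on day 1 (adjusted p = 0.0597) and fell by 0.44 on day 3 and by 1.33 on day 7 on the log2 scale (adjusted p = 0.00124 and 3.98e-05), in the order shown by Etv1. Etv4 was not well above background on days 3 and 7, at least 1.36-fold lower on day 7 (adjusted p = 0.049, a call lost under most scalings). In the LAMP family all 5 genes, Lamp5 included, were called lower on day 3, when 27.2% of all probes were. Lamp1 was at 0.08 on day 1 (not called) and lower by -0.33 and -0.61 on days 3 and 7, and Lamp2 at -0.05 (not called), -0.46 and -0.45. The day 7 call of Lamp2 was lost with median centring. Cd68, the macrophage member, was at -0.45, -0.37 and -0.11, the last not called, and Lamp3 was not well above background on days 3 and 7, at least 1.55-fold lower on day 3 (adjusted p = 0.0361). The day 3 call of Cd68 was lost with normexp background correction, under which the sign of Lamp3 turned; that of Lamp3 was also lost with quantile normalization, cyclic loess and the authors' values. No relative shared the day 1 rise of Lamp5. Rora, the other ROR receptor tested, was lower on day 3 (-0.55, adjusted p = 0.00597) and not called on days 1 and 7 (0.30 and -0.15). Its day 3 call was lost with normexp background correction.

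Some genes followed the members closely over the 8 arrays, among 2557 probes well above background on all arrays with group means spanning at least 1 log2 unit. Prkcd was most like Thrsp (Pearson r = 0.992), Cml3 (0.9911) and Calb2 (0.989), the last of which encodes the calcium-binding protein calretinin. Slc17a6 was most like Neu4, Bpifa5 and Tlcd1 (0.982 to 0.9912), and Tcf7l2 most like Olr1375, Magel2 and Neu4 (0.9898 to 0.9909). Etv1 was most like Far2, Dbc1 and Ddost (0.9981 to 0.9985), and Lamp5 was close to Ehd2 (0.9972) and Gucy1b3 (0.9969). The brightest Lef1 probe was most like Aoc3, Gria1 and Dpysl3 (0.9855 to 0.9886), and Rorb most like Igsf1, Thrsp and Dio3 (0.9684 to 0.981). These values order probes by likeness and carry no test.

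Marker lists of other tissues moved over the same arrays, and their part in the members' changes was not tested. The hippocampus label was met by all 9 CA field markers, which were well above background in every group with a summed level of 44 to 45.1 in normoxia, 37.3 to 38.3 on day 1, 50.5 to 51.4 on day 3 and 54.4 to 56.9 on day 7, in multiples of the array's 75th percentile. The summed level of the thalamus list was carried by the members, which made up 71.6% to 81.3% of it. Without them, its other 12 genes summed to 3.3 to 3.34 in normoxia, 3.53 on day 1, 2.41 to 2.43 on day 3 and 2.6 to 2.7 on day 7. Their sum was thus not lower on day 1, although 5 of these genes were called lower and 2, Ramp3 and Tnnt1, higher. The 16 neocortex genes that are not members summed to 8.83 to 9.1, 10.6 to 10.8, 8.4 to 8.45, and 8.31 to 8.36 in the same order. The 8 dentate gyrus genes, of which Prox1 was not well above background on days 1 and 7 and Tdo2 on day 3, summed to 5.5 to 5.6, 4.81 to 4.95, 6.65 to 6.73, and 5.51 to 5.72. On day 3 the sum of the other thalamus genes was below that of normoxia and the CA field sum above it. Fibcd1 and Mpped1, at log2 levels of 4.61 and 3.64 in normoxia, were the brightest CA field genes and weighed most in that sum. Of the 9 CA field genes, 2, 5 and 5 rose and 2, 0 and 3 fell on days 1, 3 and 7.

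The day 1 arrays, on which Lamp5 was high, also stood out in striatal and choroid plexus genes. The striatum list rose on day 1 in 14 of 14 tested genes, from a summed level of 10.1 to 10.2 in normoxia to 58.5 to 59.6, and stood at 8.45 to 8.56 on day 3 and 7.95 to 8.53 on day 7. The choroid plexus list fell in 15 of 15 genes on day 1, from 128 to 139 down to 5.08 to 5.17, then stood at 170 to 181 on day 3 and 14.9 to 15.5 on day 7. The hypothalamus list went from 3.62 to 3.66 in normoxia to 2.17 to 2.2, 2.47 to 2.49 and 2.84 to 3.01. Of its 12 genes, Gpr50 and Sim1 were not well above background in any group. Of the other 10, 5, 4 and 4 fell and 2, 2 and 3 rose on days 1, 3 and 7. In the habenula list 1 of 3 tested genes, Gng8, fell on each day, though on day 7 its sign turned with median centring. Of 9 midbrain dopamine genes, 7, 6 and 4 fell and 1, 1 and 2 rose on days 1, 3 and 7. With the main scaling Slc6a3, the dopamine transporter, was at least 73.3-, 44.3- and 43-fold lower (adjusted p = 0.000555, 0.000449 and 0.000179). Its smallest changes over the scalings were -3.35, -2.9 and -2.79 log2, and no call was lost. Of 12 endothelial genes, 6, 8 and 8 rose and 2, 3 and 2 fell. Of 9 inhibitory neuron genes, 5, 1 and 2 rose and 1, 3 and 5 fell. Oligodendrocyte genes rose in 3, 3 and 4 of 12 and fell in 3, 6 and 6.

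**Figure D4:**
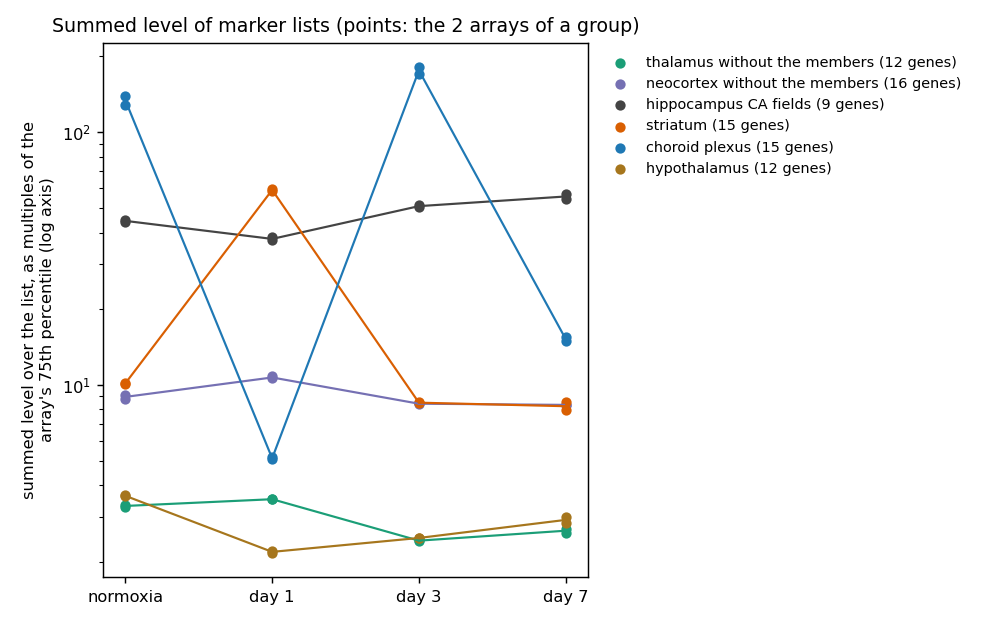
Summed level of 6 marker lists on each array, as multiples of the array's 75th percentile on a log axis; points are the 2 arrays of a group and lines join their means. The thalamus and neocortex lists are drawn without the members. The sum of the 12 thalamus genes is lowest on day 3 (2.41 to 2.43), the striatum sum highest on day 1 (58.5 to 59.6), and the choroid plexus sum lowest on day 1 (5.08 to 5.17).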

How the data were processed

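The deposited scanner output gives, per the file headers, a background-subtracted, detrended processed signal intensity per spot from Agilent Feature Extraction 11.5.1.1, not scaled between arrays. The authors' deposited value table is in log2 units with unstated scaling. After 1 constant per array, 96.7% to 97.4% of its values lay within 0.05 of the log2 processed signal once that array's 75th percentile was subtracted, and it served as an alternative. Control and outlier spots were left out, the log2 spots of a probe averaged, and the 75th percentile subtracted. Scaling this way sets changes relative to the bright probes of an array.

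A probe was kept where both arrays of some group had it well above background (24678 of 30346 complete probes). Tests used R 4.3.3 and limma 3.58.1 (lmFit, eBayes, 1 mean per group, 4 residual and 1.23 prior degrees of freedom), two-sided, with Benjamini-Hochberg adjustment per comparison. The 5 comparisons were each day against normoxia and consecutive days. The procedure was also run on simulated data with independent noise. These held no slide or scaling effect, so the run cannot speak to those limits. The small number of arrays, 2 per group, limits the precision.

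The members, the gene lists and most alternatives were chosen with earlier results of these data known. From each list described, up to 4 genes with the smallest F-test p were named, and all genes of the small families. The genes most like a member were the 3 symbols with the highest Pearson r. Of the genes these rules chose, 2 are not reported here. A list's summed level adds the linear levels of its genes' brightest probes. For a group without a probe well above background, folds are lower bounds, with that group set at its own signal or at the lowest signal well above background, whichever was higher. Symbols and rn4 positions are those of the array annotation; 12 list entries without a probe of that name were not analysed here. Alternatives were quantile normalization, median centring, cyclic loess, normexp with offset 50, the authors' values, other filters, GC trend removal, only the groups compared, leaving out each array and, added after the data were seen, no scaling. Plots were drawn with matplotlib.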

Additional observations from a re-analysis of the deposited data

Results flagged for a closer look

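The change from normoxia of each of the 10 member probes differed between day 1 and day 3 or between day 3 and day 7, by the limma test of the difference between those days, as did that of 64.1% of all probes tested. Comparisons with normoxia share its arrays. The size of a difference between days does not use the normoxia arrays. Its standard error and p-value do, since all arrays share an estimate of the spread. From day 1 to day 3 the difference was -0.80 for Prkcd, -0.32 for Tcf7l2 A_64_P099307, -0.20 for Slc17a6, -1.04 for Lef1 A_64_P166158, -0.80 for Etv1, -1.87 for Lamp5 and -0.44 for Rorb. It was 0.51 for Tcf7l2 A_64_P040190. From day 3 to day 7 it was 0.64 for Prkcd, 0.77 for Tcf7l2 A_64_P099307, 0.57 for Slc17a6 and 0.45 for Rorb. In the same interval it was -0.17 for Lef1 A_64_P052010, -1.21 for Lef1 A_64_P052007, -1.58 for Etv1 and -0.46 for Lamp5. Slide rows differ between day 1 and day 3 but not between day 3 and day 7, while slide columns differ in both intervals.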

How the results depend on the processing

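Of 348 changes of a member probe from normoxia recomputed under settings other than leaving out an array, 325 kept their direction and side of the threshold, 8 lost the call, 9 gained it and 6 changed sign. Tcf7l2 A_64_P040190 was -0.82 on day 7 with no scaling (adjusted p = 0.00458) and 0.0066 on day 3 with median centring, and Rorb on day 7 was 0.066, 0.059, 0.0090 and 0.097 with quantile normalization, median centring, cyclic loess and normexp. Of 240 recomputed without 1 array, 225 kept theirs, and Tcf7l2 A_64_P040190 on day 7 changed sign without day 7 replicate 1 (-0.078). Between days, Lef1 A_64_P052010 changed sign for day 3 against day 1, at 0.057, 0.11, 0.036, 0.11 and 0.0045 with quantile normalization, median centring, cyclic loess, normexp and GC trend removal, and Tcf7l2 A_64_P040190 for day 7 against day 3 with no scaling (-0.074). All but the first of these values were uncalled. With no scaling, 5127 probes were called on day 1 against normoxia (8449 in the main analysis), 18622 on day 3 (12311) and 5739 for day 7 against day 3 (10155). With only the groups compared, the last comparison gave 5629 probes and 4 member probes (8). Leaving out 1 array gave 4667 to 8669 probes on day 1, and 5 to 8 member probes for day 7 against day 3, the lowest without day 7 replicate 2; without either normoxia array, 4 member probes were called on day 1 instead of 6. Leaving out an array leaves its group with 1, which is then assumed to vary like the others.

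The share of calls that were higher was 44%, 45.5% and 48.5% on days 1, 3 and 7 against normoxia, 52.4% for day 3 against day 1 and 54.1% for day 7 against day 3. In the last 4 of these it was 64.4%, 70.4%, 66.2% and 74.9% with median centring, in the middle 3 it was 67.2%, 70.3% and 69% with normexp, and on day 1 it was 59.7% with the GC trend removed. With no scaling it was 17.7%, 2.16%, 1.25%, 5.05% and 7.93%. On day 7 the median change of all probes was 0.23 with median centring, 0.21 with normexp and -0.90 with no scaling, against -0.07. Signal over background limits the dim Lef1 and Rorb probes. No paired analysis was possible because the labels carry no replicate numbers.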
